A study of Mus musculus with 2 samples.

Results

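The common gamma chain cytokine receptors were followed through 8 genes, Il2ra, Il2rb, Il2rg, Il7r, Il4ra, Il9r, Il21r and Il15ra, chosen by name from the 32285 genes counted. All 8 had UMIs (unique molecular identifiers, which count single captured RNA molecules) in both libraries. CD4 T cells came from mouse visceral adipose tissue (VAT), from its stromal vascular fraction, that is, the cells left when fat cells are removed. They were sorted as TCRb and CD4 positive and profiled on a droplet 3′ single-cell platform, as 1 library from WT mice and 1 from CD27-/- mice (CD27_KO), both on C57BL/6. CD27 belongs to the TNF receptor family and costimulates T cells, and its loss is the only difference the titles give between the libraries. The labels speak of 10 pooled mice, without saying whether that is per library, and they give neither age nor sex. The design text also names a CD11c-Cd70tg cross and CD27+/- controls, which are not among these samples.

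Each receptor of this family joins a private chain to the common gamma chain, which Il2rg encodes. The signalling private chain carries the kinase JAK1 and the gamma chain JAK3, and together they activate STAT proteins, chiefly STAT5 for IL-2, IL-7, IL-9 and IL-15, STAT6 for IL-4, and STAT3 for IL-21. Il2ra encodes CD25, which raises the affinity of the IL-2 receptor and is high on regulatory T cells (Treg). Il2rb encodes the beta chain shared by the IL-2 and IL-15 receptors. Il7r encodes the IL-7 receptor chain that keeps naive and memory T cells alive. In adipose tissue, Treg cells express Foxp3, and many also carry the IL-33 receptor ST2, encoded by Il1rl1, as type 2 helper (Th2) cells do.

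The WT library held 6203 T cells with 15833257 UMIs (median 1931 per cell), and the CD27_KO library held 6789 with 19786634 (median 2200). Cd27 gave 2072 UMIs in WT and 15 in CD27_KO T cells. Both samples carry one and the same genotype entry, so the groups rest on the titles and these counts. Of WT T cells 75.4% had a Cd3e UMI, 25.3% a Cd4 UMI and 0.0484% a Cd8a UMI, and of CD27_KO T cells 79.9%, 30.8% and 0.0589%. Ribosomal protein genes took 32.2% of the WT and 27.7% of the CD27_KO UMIs, and the median gene lay 0.17 higher in CD27_KO on the log2 scale. The libraries shared 12 cell barcodes. With 1 pooled library per group there is no replicate, no test between groups and no p-value. All intervals are exact, at 95%, and cover counting error only, and they take each UMI as independent.

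T cell states were taken from clusters formed without the 8 receptor genes. Treg-like cells (1257 WT and 444 CD27_KO) joined cluster 6, led by Cxcl2, Areg, Il10 and Ikzf2, and cluster 3, led by Foxp3, Ctla4 and Ikzf2. Most WT Treg-like cells were in cluster 6 (1066 of 1257), while CD27_KO cells were split between cluster 6 (221) and cluster 3 (223). Th2-like cells (281 and 1138) were cluster 9, led by Calca, Tnfsf11 and Csf2. Th1-like cells (1576 and 2725) joined cluster 0, led by Ly6c2 and Nkg7, cluster 4, led by Il18r1 and Slamf1, and cluster 5, led by P2rx7 and Lyst. In WT most lay in clusters 0 (744) and 4 (498), and in CD27_KO most lay in cluster 5 (1879). A class value can therefore differ between libraries where no cluster does. Of 11 Th1 markers, 5 were enriched in cluster 0, 4 in cluster 4 and only 3 in cluster 5. With each library clustered alone, the Th1-like class held 1578 WT and 542 CD27_KO cells. Naive-like cells (1297 and 316) were cluster 8, with Dapl1, Ccr7 and Igfbp4 among its leading genes. NK-receptor-like cells (352 and 159) were cluster 11, with Xcl1, Fcer1g and Klrk1. Clusters 1, 2 and 7 matched no single type and stayed unnamed. Cluster 7 (74 and 411) had Th2 and innate type 2 genes and a median of 5356 and 5931 UMIs per cell.

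In mm10 (GENCODE vM21), Il2ra (ENSMUSG00000026770) spans chr2:11642807-11693193 on the plus strand, and Il15ra (ENSMUSG00000023206), chr2:11705290-11734317, starts 12.1 kb beyond its end. Il4ra (ENSMUSG00000030748), chr7:125552120-125579474, and Il21r (ENSMUSG00000030745), chr7:125603429-125633570, are also neighbours on the plus strand, 24.0 kb apart. The other 4 genes lie on the minus strand and stand alone. These are Il2rb (ENSMUSG00000068227, chr15:78479256-78495271), Il7r (ENSMUSG00000003882, chr15:9505788-9530176), Il9r (ENSMUSG00000020279, chr11:32187541-32200279) and Il2rg (ENSMUSG00000031304, chrX:101264378-101268255). Il2ra overlaps the model Gm37881 and Il2rg overlaps Gm20489 on the same strand, and Il4ra overlaps Gm44876 on the opposite strand. These overlaps are of whole gene spans, and their effect on the counts was not tested.

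Because Il2ra and Il9r varied most between T cell states, by the ratio of the highest to the lowest cluster, and Il2rg is the chain they share, the 250 bases before the RefSeq start of these 3 genes are shown (GRCm38.p6). Of the 8 genes, 7 had a promoter in the RefSeq table. Capitals mark the letters of 5 motifs, searched on both strands: TTCNNNGAA for STAT factors, AGATAA for GATA factors, CCGGAAG for ETS, TGTGGT for RUNX and CCACACCC for KLF factors. No 2 matches overlapped in these windows.
Il2ra, chr2:11642542-11642791, plus strand: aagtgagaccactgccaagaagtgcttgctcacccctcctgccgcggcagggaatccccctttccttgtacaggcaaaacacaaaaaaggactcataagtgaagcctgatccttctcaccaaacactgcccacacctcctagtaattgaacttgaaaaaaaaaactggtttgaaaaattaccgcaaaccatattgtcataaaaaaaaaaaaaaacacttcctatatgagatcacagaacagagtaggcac
Il9r, chr11:32200280-32200529, minus strand: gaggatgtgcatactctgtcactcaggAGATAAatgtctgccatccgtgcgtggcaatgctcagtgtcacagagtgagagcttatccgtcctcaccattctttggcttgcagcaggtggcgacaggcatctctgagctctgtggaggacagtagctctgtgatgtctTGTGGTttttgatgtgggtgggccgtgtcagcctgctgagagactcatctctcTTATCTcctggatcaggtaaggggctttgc
Il2rg, chrX:101268256-101268505, minus strand: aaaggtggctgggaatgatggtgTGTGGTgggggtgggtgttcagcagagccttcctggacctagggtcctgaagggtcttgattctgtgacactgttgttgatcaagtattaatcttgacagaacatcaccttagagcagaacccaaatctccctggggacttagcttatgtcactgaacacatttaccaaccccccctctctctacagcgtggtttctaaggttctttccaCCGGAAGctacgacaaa
The Il9r window held the GATA letters at positions -223 and -30 before the start, and the RUNX letters at -83. The Il2rg window held the RUNX letters at -227 and the ETS letters at -17, and the Il2ra window held none of the 5. Of the 32851 promoters of the table, cut to the same length, 9.99% held the GATA letters, 14.0% RUNX, 6.91% ETS, 7.02% STAT and 3.20% KLF. A match is only a run of letters, and its absence says nothing of a factor elsewhere.

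Over all T cells, none of the 8 receptor genes differed between the libraries by more than 1.68-fold, and the gamma chain gene was the nearest to even. Il9r and Il15ra, both sparse, were the 2 genes at least 1.5-fold higher in CD27_KO, and no receptor gene was 1.5-fold lower. Of 9755 genes with at least 100 UMIs over both libraries, 7.03% were higher in CD27_KO by that margin and 2.86% were lower. The median log2 ratio of CD27_KO over WT was 0.17 for the 8 receptor genes and 0.17 for all genes. Scaled by the median gene instead of by the library total, no receptor gene was 1.5-fold apart. That scaling turned the 686 higher and 279 lower genes (71.1% of them higher) into 325 higher and 418 lower (43.7% higher).

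The common chain gene Il2rg gave 5825 UMIs in WT, or 368 CPM (UMIs scaled to equal library totals), and 7479, or 378 CPM, in CD27_KO. The log2 ratio was 0.04 (interval −0.01 to 0.09), so the libraries did not differ beyond counting error. Il9r, which encodes the IL-9 receptor chain, gave 256 UMIs (16.2 CPM) in WT and 536 (27.1 CPM) in CD27_KO, a log2 ratio of 0.74 (0.53 to 0.97). Il15ra, whose product presents IL-15 to neighbouring cells, gave 133 UMIs (8.40 CPM) and 272 (13.7 CPM), a log2 ratio of 0.71 (0.41 to 1.02). Both intervals lie above 0, and both genes were scarce, seen in 1.94% and 3.01% of cells for Il9r and in 1.02% and 1.66% for Il15ra once each cell was thinned to 1300 UMIs (3.76% and 7.07%, and 1.999% and 3.73%, before thinning). The thinning left out 536 WT and 54 CD27_KO T cells. Il2rb lay at 229 and 298 CPM (3631 and 5898 UMIs), a log2 ratio of 0.38 (0.32 to 0.44), and Il7r at 955 and 1058 CPM (15114 and 20937 UMIs), 0.15 (0.12 to 0.18). Il4ra, the chain for IL-4 and IL-13, lay at 44.8 and 51.4 CPM (710 and 1017 UMIs), a log2 ratio of 0.20 (0.06 to 0.34). Il2ra was lower in CD27_KO, at 144 and 121 CPM (2282 and 2394 UMIs), with a log2 ratio of −0.25 (−0.34 to −0.17). Il21r, the chain for IL-21, was slightly lower, at 115 and 105 CPM (1814 and 2085 UMIs), −0.12 (−0.21 to −0.03). The Il7r ratio turned to −0.02 and the Il2rg ratio to −0.13 when scaled by the median gene.

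**Figure D1:**
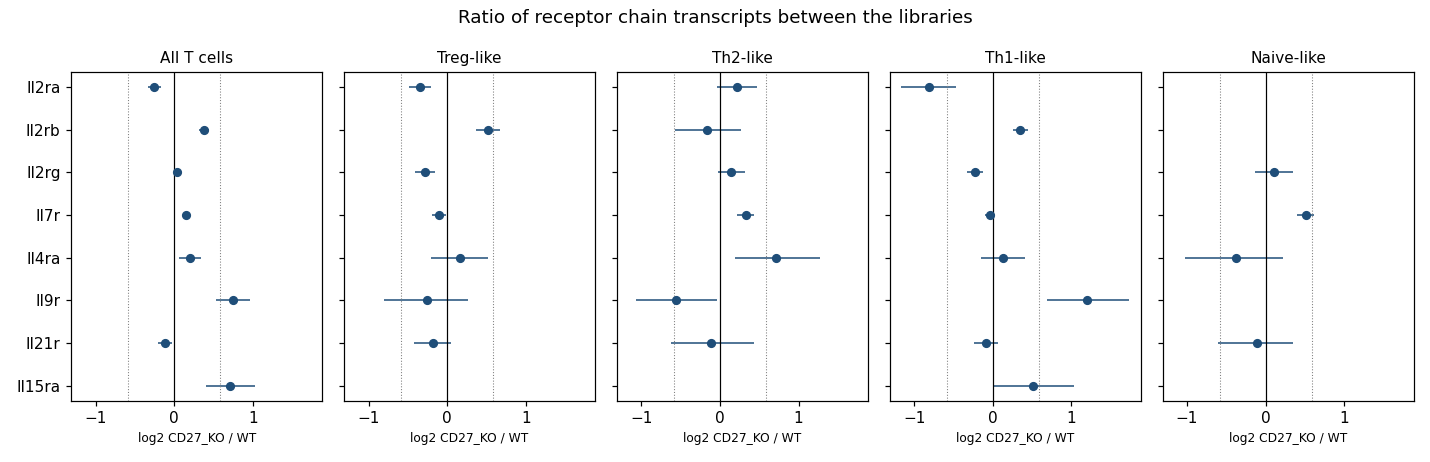
Log2 ratio of CD27_KO over WT for each receptor gene that had 100 UMIs or more in the pair of libraries, shown for all T cells and in 4 classes. Points are ratios of summed CPM, bars are exact 95% counting intervals, and dotted lines mark 1.5-fold; Il9r lies at 0.74 over all T cells and 1.20 in Th1-like cells, but at −0.56 in Th2-like cells.

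Il2ra followed the Treg-like and Th2-like clusters, and its highest level was not in the cluster with most Foxp3. Cluster 6 held 448 CPM of Il2ra in WT (interval 427 to 470) and 433 in CD27_KO (393 to 477). Cluster 9, the Th2-like cells, held 227 and 264 CPM, and Treg-like cluster 3 held 130 and 170. Cluster 6 was thus 3.44-fold above cluster 3 in WT (2.57 to 4.72) and 2.54-fold in CD27_KO (2.04 to 3.19), while its Foxp3 was lower, at 174 against 246 CPM in WT and 227 against 294 in CD27_KO. Th2-like cells exceeded Treg-like cluster 3 by 1.75-fold (1.25 to 2.48) and 1.55-fold (1.26 to 1.92), with 1 Foxp3 UMI in each library. Among the 10 clusters with at least 100 cells in both libraries (the large clusters), the first places went to clusters 6, 9, 3 and 2 in that order in both. Of these, only clusters 3 and 2 in WT overlapped in their intervals. Unnamed cluster 7, with 74 WT cells, held 246 CPM in WT (203 to 295) and 248 in CD27_KO (231 to 267), close to cluster 9. Unnamed cluster 2, led by Csf2, Bcl2a1d and Bhlhe40, held 98.7 and 79.2 CPM. Naive-like cells were near the bottom, with 29 UMIs (11.03 CPM) in WT and 3 (4.39 CPM) in CD27_KO. Th1-like clusters 0 and 5 held 4.87 and 19.8 CPM in WT and 19.5 and 6.86 in CD27_KO, which rests on 7 and 11 UMIs in WT and 7 and 25 in CD27_KO, with intervals that overlap in each library.

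**Figure D2:**
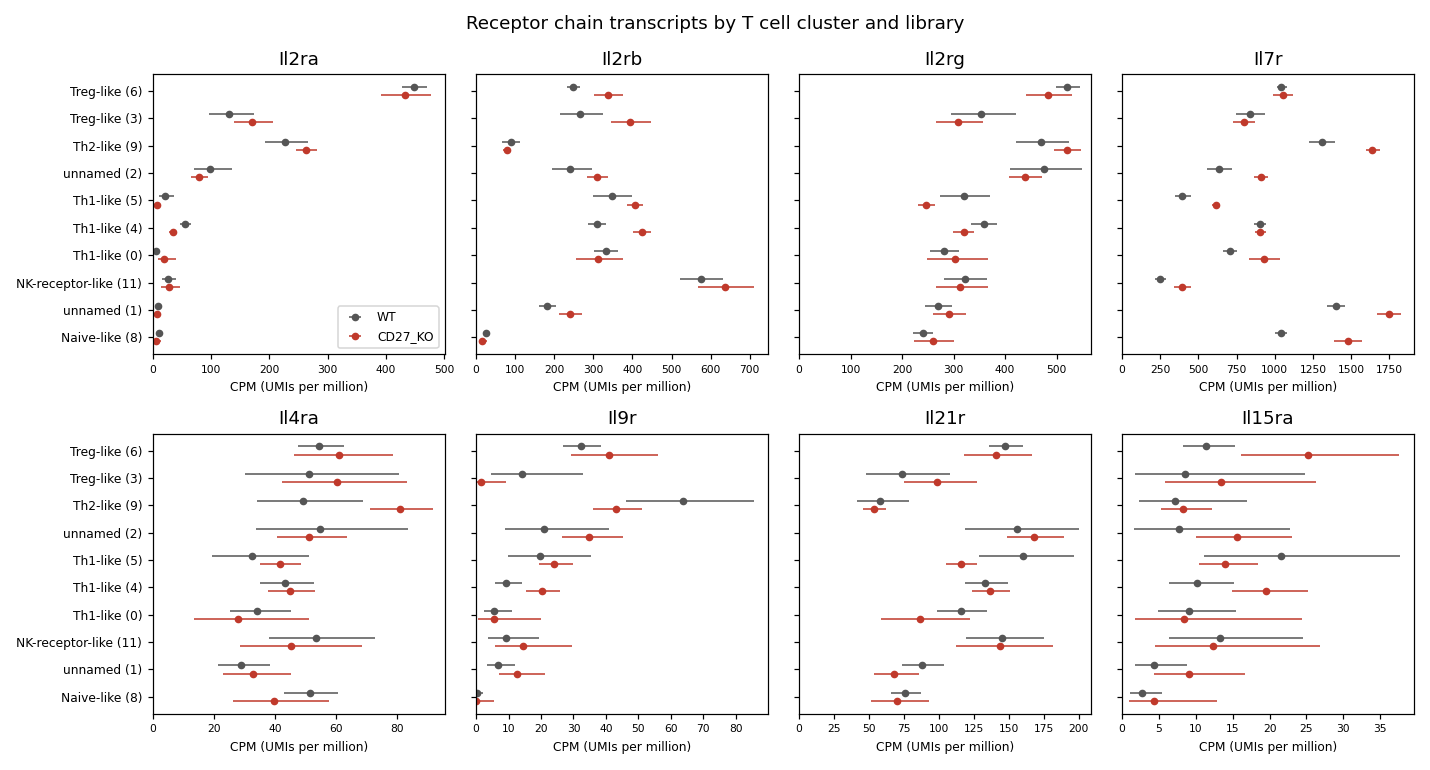
CPM of each receptor gene in the 10 T cell clusters with at least 100 cells in both libraries, with exact 95% Poisson intervals; each panel has its own axis from 0. Il2ra is highest in cluster 6, at 448 CPM in WT and 433 in CD27_KO, and Il2rb in cluster 11, at 575 and 636.

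Most Il2ra molecules came from different cells in the 2 libraries. In WT, Treg-like cells held 76.2% of the Il2ra UMIs of all T cells, Th2-like cells 6.88% and cluster 7 held 4.996%. In CD27_KO these shares were 21.5%, 33.2% and 30.1%. The shares follow the number of cells in each cluster as well as the level per cell, and the clusters rest on genes that differ between the libraries. With cells sorted instead by their own transcripts, cells with a Foxp3 UMI held 40.1% of Il2ra UMIs in WT and 21.6% in CD27_KO. Cells with Il1rl1 and Gata3 but no Foxp3 UMI then held 31.9% and 55.5%. This second pick can take in Treg-like cells, here and wherever Th2-like cells are picked by their own transcripts below. In WT cluster 6, 655 cells had no Foxp3 UMI, and the cluster held Il1rl1 at 719 CPM and Gata3 at 465. Averaged over clusters with the same weights in both libraries, Il2ra lay at 103 CPM in each, a log2 ratio of 0.00 against −0.25 over all T cells.

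**Figure D3:**
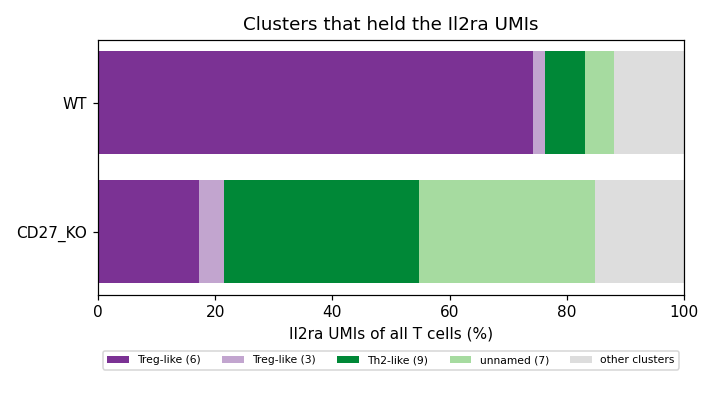
Share of all Il2ra UMIs of T cells held by Treg-like clusters 6 and 3, Th2-like cluster 9, unnamed cluster 7 and the other clusters, in each library (bars from 0 to 100%). Treg-like cells held 76.2% in WT and 21.5% in CD27_KO.

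Within Treg-like cells, Il2ra was seen in 37.9% of WT cells (35.0 to 40.8) and 33.8% of CD27_KO cells (29.3 to 38.5) after thinning (57.0% and 50.2% before). Naive-like cells, which should carry little, showed it in 1.22% and 0.952%, at median depths of 1868 and 2087.5 UMIs against 2328 and 2639 in Treg-like cells. The Treg-like class as a whole had 421 CPM in WT and 332 in CD27_KO, a log2 ratio of −0.34 (−0.49 to −0.20). Neither of its clusters showed that difference: the ratio was −0.05 in cluster 6 (−0.21 to 0.11) and 0.39 in cluster 3 (−0.13 to 0.92). Cells of WT cluster 6 with a Foxp3 UMI (411) and without one (655) had 444 and 453 CPM of Il2ra, a log2 ratio of −0.03 (−0.17 to 0.11). In CD27_KO cluster 3 the 100 cells with a Foxp3 UMI had more Il2ra than the 123 without, 219 against 123 CPM, with a log2 ratio of 0.84 (0.23 to 1.46). In WT cluster 3 the ratio was −0.26 (−1.21 to 0.65), an interval that includes 0.

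Il2rb was spread over the states differently from Il2ra. Among the large clusters it was highest in NK-receptor-like cluster 11, at 575 CPM in WT (522 to 632) and 636 in CD27_KO (567 to 711). Cluster 11 was 1.66-fold (1.40 to 1.98) and 1.56-fold (1.38 to 1.77) above Th1-like cluster 5. The 3 Th1-like clusters followed at 308 to 347 CPM in WT and 312 to 423 in CD27_KO, together with the Treg-like clusters at 249 and 266 CPM in WT and 337 and 394 in CD27_KO, with intervals that overlap from one cluster to the next. Th2-like cells had only 88.3 and 78.8 CPM, 3.93-fold (2.93 to 5.33) and 5.16-fold (4.50 to 5.95) below cluster 5, although they ranked second for Il2ra among the large clusters. Naive-like cells had the least of any T cell cluster, 24.7 and 14.6 CPM (65 and 10 UMIs). The low Th2-like level did not extend to cluster 7, with 274 and 268 CPM. When Th2-like cells were picked by Il1rl1 and Gata3 UMIs, the log2 ratio of Il2rb over other T cells shrank from −1.42 to −0.09 in WT and from −2.10 to −0.77 in CD27_KO.

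**Figure D4:**
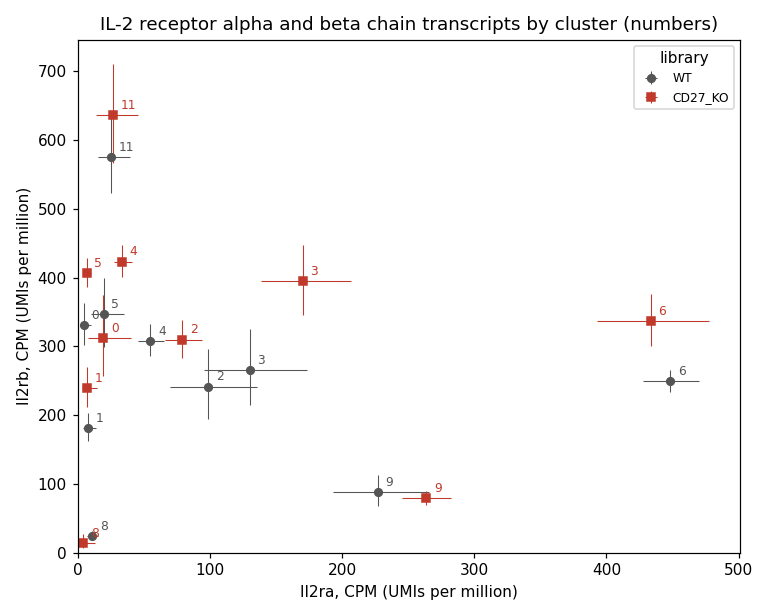
Il2rb against Il2ra (CPM, exact 95% Poisson intervals) in the 10 clusters with at least 100 cells in both libraries; numbers are clusters. Cluster 9 (Th2-like) has Il2ra at 227 and 264 CPM with Il2rb at 88.3 and 78.8, cluster 11 the reverse, and cluster 6 has both.

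Il2rb was higher in CD27_KO in 7 of the 10 large clusters, with an interval above 0 in 6 and below 0 in none. The median gene was itself higher in CD27_KO, by 0.17 over all T cells and by 0.08 to 0.14 within the 4 classes. The lower limits in clusters 5 (0.01), 2 (0.04) and 1 (0.15) lay below 0.17. In Treg-like cells it lay at 251 CPM in WT and 359 in CD27_KO, a log2 ratio of 0.52 (0.37 to 0.67), and was seen in 25.3% and 34.3% of thinned cells (42.8% and 58.3% before), against 2.43% and 1.90% of naive-like cells. The ratio was 0.44 (0.25 to 0.62) in cluster 6 and 0.57 (0.22 to 0.93) in cluster 3, so it was present in both. None of the 7 receptor genes with enough UMIs was 1.5-fold apart in Treg-like cells, where 5.47% of 5797 genes were higher and 3.11% lower. In Th1-like cells the ratio of Il2rb was 0.35 (0.26 to 0.44), from 321 and 409 CPM. In Th2-like cells it was −0.16 (−0.58 to 0.27), within counting error. Within Treg-like cells, the naive markers as a whole list summed to 861 CPM in WT and 549 in CD27_KO. Of these 9, 7 had enough UMIs, 3 of them at least 1.5-fold lower in CD27_KO and none higher, and Dapl1 was at 0 in CD27_KO. The Th2 markers summed to 1335 and 939 CPM. Of 11, 4 had enough UMIs, 2 of them lower and none higher, and Ptgdr2 was at 0 in both. The ILC2 markers summed to 1895 and 982 CPM. Of 6, 2 had enough UMIs, 1 of them lower and none higher, and Hs3st1 was at 0 in CD27_KO. The Th1 markers went the other way, from 1740 to 2166 CPM. Of 11, 7 had enough UMIs, 3 of them higher and 1 lower, and none was at 0. Their part in the Treg-like results was not tested.

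Il15ra stayed sparse in every cluster. In Treg-like cluster 6 it gave 43 UMIs (11.4 CPM) in WT and 24 (25.2 CPM) in CD27_KO, a log2 ratio of 1.15 (0.36 to 1.90). In Th1-like cells it lay at 11.3 and 16.1 CPM, a log2 ratio of 0.51 (0.02 to 1.03). Of 5 large clusters with at least 20 UMIs, 4 were higher in CD27_KO and 2 had an interval above 0. Th1-like cluster 5 was lower there, at 21.6 and 14.0 CPM, with a log2 ratio of −0.62 (−1.55 to 0.42).

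The gamma chain gene Il2rg lay between 240 and 521 CPM in the large clusters of WT and between 247 and 520 in CD27_KO. Cluster 6 held 521 CPM of Il2rg in WT and 484 in CD27_KO, and Th2-like cells 470 and 520. These were the large clusters with most Il2ra, but the order did not follow Il2ra throughout. Cluster 2, with Il2ra at 98.7 and 79.2 CPM, held Il2rg at 475 and 439. Treg-like cluster 3, with Il2ra at 130 and 170 CPM, held Il2rg at 354 and 309. Naive-like cells had 240 and 259 CPM. Cluster 6 was 2.17-fold (1.98 to 2.38) and 1.87-fold (1.57 to 2.23) above naive-like cells, and Th2-like cells 1.96-fold (1.71 to 2.25) and 2.01-fold (1.72 to 2.36). Among the 10 large clusters the first 3 places, clusters 6, 2 and 9 in WT and 9, 6 and 2 in CD27_KO, overlapped from one to the next. Cluster 7, with 516 and 508 CPM, lay at the same level. In Treg-like cells the class ratio of CD27_KO over WT was −0.28 (−0.41 to −0.15), while it was −0.11 (−0.26 to 0.04) in cluster 6 and −0.20 (−0.53 to 0.14) in cluster 3.

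Il7r was found in every state, and among the large clusters it was lowest in NK-receptor-like cells. Unnamed cluster 1, which mixed naive and follicular markers, was at 1400 CPM in WT and 1748 in CD27_KO. Th2-like cells had 1309 (1225 to 1397) and 1640 (1594 to 1686), overlapping cluster 1 in both libraries. Treg-like cluster 6 held 1044 and 1053 CPM, so the cells with most Il2ra carried Il7r as well. NK-receptor-like cells were last, at 250 and 395 CPM, 4.17-fold (3.59 to 4.86) and 3.75-fold (3.21 to 4.40) below naive-like cells. In thinned WT Treg-like cells, Il7r was seen in 67.2% of the 424 cells with an Il2ra UMI and in 66.5% of the 696 without. In CD27_KO Treg-like cells these values were 64.4% (interval 56.0 to 72.1, 146 cells) and 58.7% (286 cells). Over all T cells Il7r was seen in 63.1% of Il2ra-positive cells in WT (59.2 to 67.0) and in 73.5% in CD27_KO (70.0 to 76.8), against 57.9% and 58.1% of the cells without.

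In naive-like cells Il7r was the receptor gene furthest apart among those with enough UMIs. It gave 2737 UMIs (1041 CPM) in WT and 1011 (1480 CPM) in CD27_KO, a log2 ratio of 0.51 (0.40 to 0.61). After thinning it was seen in 63.1% (60.3 to 65.8) and 80.0% (75.2 to 84.3) of these cells (72.9% and 88.0% before). Stromal cells of the sort, 29 in WT and 11 in CD27_KO, had Il7r in 1 cell each, at median depths of 2039 and 2406 UMIs. The other cells left out were not free of it. Plasmacytoid dendritic cells (55 and 27) gave 281 and 126 Il7r UMIs, and the B cell cluster (51 and 26) gave 131 and 87. Both clusters also held Cd3e, at 527 and 395 CPM and at 575 and 386 CPM, and the source was not tested. None of the 4 receptor genes with enough UMIs passed 1.5-fold in naive-like cells, where 8.90% of 3077 genes were higher and 2.60% lower. Beside Il7r, the 9 naive markers summed to 4030 and 5057 CPM, with 1 at least 1.5-fold higher and none lower. The part of this in the Il7r difference was not tested. The same direction was seen for Il7r in 8 of the 10 large clusters, with an interval above 0 in 7 and below 0 in none. The lowest of these 7 lower limits was 0.22, beside a median gene that was 0.17 higher over all T cells. Treg-like clusters 6 and 3 were the ones that stayed even, at 0.01 (−0.09 to 0.11) and −0.07 (−0.28 to 0.14), along with Th1-like cluster 4. In Th2-like cells the ratio was 0.33 (0.22 to 0.43), in cluster 5 it was 0.64 (0.44 to 0.84) and in cluster 11 it was 0.66 (0.36 to 0.96). The Th1-like class as a whole was even for Il7r, at 772 and 756 CPM, a log2 ratio of −0.03 (−0.09 to 0.03). Averaged over clusters with equal weights, Il7r was 888 CPM in WT and 1098 in CD27_KO, a log2 ratio of 0.31 against 0.15 over all T cells.

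Il4ra differed little between states. In WT the 10 large clusters lay between 28.9 and 54.5 CPM, and every cluster overlapped the next in order. In CD27_KO the range was 27.8 to 80.8 CPM, with Th2-like cells first. Th2-like Il4ra gave 34 UMIs (49.2 CPM) in WT and 244 (80.8 CPM) in CD27_KO, a log2 ratio of 0.72 (0.19 to 1.28). It was the 1 receptor gene of 7 at least 1.5-fold apart in Th2-like cells, where 8.46% of 4219 genes were higher and 2.42% lower. With clusters at resolution 0.5 the ratio was 0.08 (−0.20 to 0.38), and with cells picked by their own transcripts it was 0.19 (−0.10 to 0.49). The Th1 markers summed to 523 CPM in WT and 148 in CD27_KO Th2-like cells. Of 11, 2 had enough UMIs, and both were lower. The ILC2 markers summed to 1471 and 961 CPM. Of 6, 3 had enough UMIs, with 1 of them lower. The naive markers summed to 627 and 713 CPM. Of 9, 5 had enough UMIs, with 1 of them higher. Ccl4 and Gzmk were at 0 in both libraries, and the part of these lists in the Il4ra value was not tested.

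Among the large clusters of WT, Il9r was highest in Th2-like cells. Treg-like cluster 6 came second, but its interval overlapped those of cluster 2 (20.8 CPM, 8.97 to 40.9) and Th1-like cluster 5 (19.8 CPM, 9.87 to 35.4). Th2-like cells gave 44 UMIs, or 63.7 CPM (46.3 to 85.5), and Treg-like cluster 6 gave 122, or 32.3 CPM. Th2-like cells were 1.97-fold above cluster 6 in WT (1.36 to 2.81). In CD27_KO they were level, at 43.1 and 40.9 CPM, with a ratio of 1.05 (0.73 to 1.55). Cluster 2, at 34.9 CPM (26.4 to 45.3), overlapped both in CD27_KO. Treg-like cluster 3, which had more Foxp3 than cluster 6, gave 5 UMIs in WT, or 14.2 CPM (4.60 to 33.0). This overlapped cluster 6 in WT (26.8 to 38.6). In CD27_KO cluster 3 gave 1 UMI, or 1.67 CPM (0.04 to 9.31), below cluster 6 (29.1 to 56.0). Naive-like cells gave 1 UMI in WT and 0 in CD27_KO, where a limit of 3 UMIs allows up to 4.39 CPM. After thinning, 10.3% of WT (6.92 to 14.5) and 5.12% of CD27_KO (3.91 to 6.57) Th2-like cells had an Il9r UMI (14.6% and 10.5% before), against 0.0811% and 0% of naive-like cells.

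The Il9r difference between libraries did not go one way across states. In Th1-like cells it gave 40 UMIs (9.38 CPM) in WT and 151 (21.5 CPM) in CD27_KO, a log2 ratio of 1.20 (0.68 to 1.74). It was 1 of 8 receptor genes at least 1.5-fold higher in that class, where 5.78% of 7549 genes were higher and 1.70% lower. Cluster 4 showed a ratio of 1.13, from 21 and 61 UMIs, and cluster 5 one of 0.29 (−0.62 to 1.34). In Th2-like cells the ratio was −0.56 (−1.07 to −0.04), but it was 0.24 (−0.14 to 0.63) when those cells were picked by their own transcripts. At equal cluster weights the Il9r ratio was 0.22, against 0.74 over all T cells. The 1 receptor gene 1.5-fold lower in Th1-like cells was Il2ra, at 33.5 and 19.1 CPM (143 and 134 UMIs), with a log2 ratio of −0.81 (−1.17 to −0.46). Most WT molecules, 125 of 143, lay in cluster 4, whose cells had a median of 4056.5 UMIs, and the direction turned under 3 other clusterings. With Th1-like cells picked by their own transcripts it was −0.17 (−0.67 to 0.33), within counting error. In Th1-like cells the Treg markers summed to 872 CPM in WT and 527 in CD27_KO. Of 10, 6 had enough UMIs, 5 of them at least 1.5-fold lower, and none was at 0. The naive markers summed to 1147 and 833 CPM. Of 9, 8 had enough UMIs, 5 of them lower, and none was at 0. The Th2 markers summed to 233 and 292 CPM. Of 11, 4 had enough UMIs, 1 of them higher and none lower, and Ptgdr2 was at 0 in WT. The ILC2 markers summed to 177 and 250 CPM. Of 6, 2 had enough UMIs, 1 higher and 1 lower, and Hs3st1 was at 0 in both. The Th1 markers, which name the class, summed to 5572 and 3888 CPM. Of 11, 10 had enough UMIs, 4 of them lower and none higher. The follicular or memory markers summed to 388 and 235 CPM. Of 8, 6 had enough UMIs, 4 of them lower and none higher. The part of these lists in the Th1-like values was not tested.

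Il21r followed Il2rb more than Il2ra. Among the large clusters it was highest in WT in Th1-like cluster 5 (160 CPM), cluster 2 (156), Treg-like cluster 6 (148) and NK-receptor-like cluster 11 (145), and these do not differ beyond counting error. In CD27_KO cluster 2 (168) and cluster 11 (144) came first. Of the large clusters, Th2-like cells were last in both, at 57.9 and 53.7 CPM. Cluster 6 exceeded them by 2.55-fold (1.85 to 3.61) and 2.62-fold (2.07 to 3.32). Between the libraries, Il21r had an interval below 0 in 1 of the 10 large clusters and above 0 in none. That cluster was cluster 5, with a log2 ratio of −0.46 (−0.80 to −0.12).

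Across 30 cluster-by-library sums of at least 50 cells, the pair of receptor genes that varied most alike was Il2ra and Il2rg, with a Pearson r of 0.81 on log2(CPM + 10). Il2rg with Il9r (0.66), Il2rb with Il21r (0.66) and Il2ra with Il9r (0.65) followed. Il7r ran against Il21r (−0.55) and Il2rb (−0.49). Among 4086 genes, those most like Il2ra were Ltb4r1 (0.93), Pim1 (0.92), a survival kinase gene, and Zfp36l1 (0.91), and those most like Il9r were Gata3 (0.90), the Th2 master regulator, Spty2d1 (0.89) and Nfkbid (0.87). Il2rb was most like Gimap7 (0.92), St8sia4 (0.89) and Lcp1 (0.88), and Il7r was most like Emb (0.88), Gpr183 (0.80) and Itgb3 (0.77). For Il2rg they were the NF-kB feedback genes Nfkbia (0.86) and Tnfaip3 (0.85) with Zfp36 (0.85) between them. For Il21r they were Trip4 (0.76), Itga1 (0.75) and Lyst (0.74), and for Il4ra Inpp4b (0.78), Aff4 (0.77) and Chd2 (0.72). These values describe the sums, which come from 2 libraries and differ in depth, and carry no p.

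Il2 and Il4 were the ligand genes with most UMIs, and both were higher in CD27_KO over all T cells. Of the 7 cytokine genes, 2 had at least 100 UMIs, and both were past 1.5-fold. Il2 gave 1119 UMIs (70.7 CPM) and 2117 (107 CPM), a log2 ratio of 0.60 (0.49 to 0.70), and Il4 177 (11.2 CPM) and 1090 (55.1 CPM), 2.30 (2.07 to 2.54). Il21 gave 48 and 8 UMIs, Il15 17 and 25, Il7 5 and 9, Tslp 1 and 4 and Il9 1 and 0. The median log2 ratio of the 2 measured cytokine genes was 1.45 over all T cells. In Th2-like cells 2 were measured, with 1 past 1.5-fold and a median of 0.29. In Th1-like cells 2 were measured, with 1 past 1.5-fold and a median of 1.53. In Treg-like cells 1 was measured, at 0.81, and in naive-like cells none. Il4 was also a marker that named Th2-like cells, which numbered 281 and 1138. The part of cell numbers in these ratios was not tested. The 9 kinase and STAT genes had a median log2 ratio of 0.24. Of these, 1, not reported here, was at least 1.5-fold higher and none was lower. Jak2 (0.46), Tyk2 (0.40) and Stat5b (−0.36) stayed within 1.5-fold. In Treg-like cells 2 of 8 measured were higher and in Th1-like cells 1 of 9, with none lower in either. Jak3, the partner kinase of the gamma chain, lay at 12.2 and 10.6 CPM, a log2 ratio of −0.21 (−0.50 to 0.08).

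Of 10 feedback and STAT5 target genes, 2 were higher and 1 lower, with a median of 0.19 beside 0.17 for all genes. The suppressors Socs2, at 252 and 470 CPM (0.90), and Cish, at 101 and 158 CPM (0.64), were higher. Socs3, at 40.3 and 26.6 CPM (−0.60), was lower, and Ccnd2 was next (0.38). In Treg-like cells Socs2 (0.66) and in Th2-like cells Bcl2 (0.82), a survival gene, was the 1 gene of this list at least 1.5-fold higher. None of the 9 and 8 measured was lower there. In Th1-like cells 1 of 10 was higher and 1 lower, and in naive-like cells 2 of 7 were lower and 0 higher. Of 17 other cytokine receptor genes with enough UMIs, 1 was higher and 1 lower, with a median of 0.08. Il18rap, a chain of the IL-18 receptor, lay at 45.2 and 71.4 CPM (0.66), and Il6ra, the IL-6 receptor chain, at 48.1 and 22.9 CPM (−1.07). Il6st (−0.53) and Il12rb2 (0.31) were the next furthest. The shares of all genes given above apply to these counts too.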

How the data were processed

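Per the file headers, the authors counted UMIs per gene and cell with Cell Ranger 6.1.1, and the deposited matrices hold these raw counts. The build is mm10 per the submitters' processing notes. Gene positions are those of GENCODE M21 and promoter sequences those of RefSeq. The labels give 2 different versions of the 3′ kit. Barcodes below 500 genes or above 10% mitochondrial UMIs (60 in WT, 40 in CD27_KO) were dropped. The cells of both libraries together were grouped with no batch correction (2000 variable genes without the 8 receptor genes and Cd27, 30 components, 20 neighbours, Leiden resolution 1, seed 0; scanpy 1.11.5 in Python 3.11.15). A cluster took the name of a marker list if 3 or more of its genes were enriched 1.5-fold and detected in 5% of the cells, and it stayed unnamed when a rival lymphocyte type reached 0.5 of its median log2 ratio. This rule was set after the data were seen. Other cells (135 WT and 64 CD27_KO) were left out, and no doublet caller was run. CPM and log2 ratios come from summed UMIs with Poisson or conditional binomial intervals, and shares carry Clopper-Pearson intervals. Genes are called apart from a 1.5-fold difference upward, given 100 or more UMIs summed over both libraries. The text names the 8 receptor genes, state checks, up to 4 genes from each of 4 pathway lists and, for each receptor gene with 500 UMIs, the 3 genes of at least 1000 UMIs with the most similar pattern over clusters. Some genes of these lists are not reported here. The members and lists were chosen with earlier results of these data known. Alternatives changed 1 choice at a time: cell filter, scaling, thinning depth, clustering and the UMI minimum. Simulated Poisson counts, in which each UMI is independent, were used to test the 1.5-fold call and the ratio interval over all T cells. Thinning was checked only for its depth. Clustering, naming, comparisons of states, shares of cells, equal weights and correlations were not simulated.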

Additional observations from a re-analysis of the deposited data

Results flagged for a closer look

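The Il7r ratio had opposite signs in 2 pairs of classes. On the log2 scale, CD27_KO over WT stood at 0.51 (0.40 to 0.61) in the naive-like cells and -0.10 (-0.19 to -0.02) in the Treg-like class. The other pair was the Th2-like cells, at 0.33 (0.22 to 0.43), and the Treg-like class, at -0.10. The Treg-like clusters taken singly did not differ beyond counting error, at 0.01 (-0.09 to 0.11) in cluster 6 and -0.07 (-0.28 to 0.14) in cluster 3, and the libraries split differently between them. With transcript gates in place of clusters the Treg-like value was 0.06. Il9r lay higher in CD27_KO in the Th1-like cells, at 1.20 (0.68 to 1.74), and lower in the Th2-like cells, at -0.56 (-1.07 to -0.04); with gates the Th2-like value was 0.24. The intervals cover counting error only. With 1 library per group these differences between states were not tested.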

How the results depend on the processing

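No paired analysis was possible because each group is 1 library. Over all T cells, 53 of 72 recomputed log2 ratios of CD27_KO over WT moved by less than their counting error; Il9r stayed between 0.57 and 0.75 and Il15ra between 0.54 and 0.71 under every alternative run; Il15ra fell short of 1.5-fold under the strict cell filter (0.56), and both did under median scaling (0.57 and 0.54). The strict cell filter (at least 1000 genes, at most 5% mitochondrial UMIs) gave -0.36 for Il2ra, 0.16 for Il2rb, -0.015 for Il2rg and 0.19 for Il7r. Scaling to the median gene gave -0.42 for Il2ra, 0.21 for Il2rb, -0.13 for Il2rg, -0.023 for Il7r, 0.025 for Il4ra and -0.29 for Il21r. Totals without ribosomal and mitochondrial genes gave -0.34 for Il2ra, 0.29 for Il2rb, -0.050 for Il2rg and 0.059 for Il7r. Weighting each cell equally gave -0.37 for Il2ra and 0.48 for Il2rb, and thinning to 1300 UMIs gave 0.47 for Il2rb and -0.022 for Il21r. Without clusters 4 and 7, a choice made after seeing the data, Il2ra was at -0.46. Genes 1.5-fold higher in CD27_KO numbered 446 under the strict filter, 325 under median scaling, 1292 at a minimum of 20 UMIs and 3746 with no minimum; genes 1.5-fold lower numbered 713 and 2953 at the last 2 settings.

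For states against the other T cells, Il2ra in Treg-like WT cells was at 2.54 at resolution 0.5, 2.10 with each library clustered alone and 1.78 by transcript gates, and in CD27_KO at 1.19 at resolution 0.5. Il9r in Th2-like WT cells was at 1.63 at resolution 0.5 and 1.46 by gates. Il2rb in Th1-like cells was at 0.61 at resolution 2 and 0.82 clustered alone in WT, and at 0.70 (resolution 0.5), 0.61 (resolution 2), 0.58 (alone) and 0.64 (gates) in CD27_KO. Il2rb in Th2-like cells was at -0.13 (resolution 0.5), -0.66 (alone) and -0.091 (gates) in WT, and at -0.68, -0.95 and -0.77 in CD27_KO. Il7r in naive-like WT cells was at 0.23 by gates. Within states, only the clustering was changed or replaced by transcript gates, and filter, scaling and thinning were not. There, 16 of 16 recomputed ratios moved by less than their counting error in naive-like cells. The same held for 22 of 28 in Treg-like, 20 of 28 in Th2-like and 20 of 32 in Th1-like cells. Il2ra within Th1-like cells turned from -0.81 to 0.41 (-0.31 to 1.18) at resolution 0.5, 1.11 at resolution 2 and 0.77 clustered alone, and was at -0.17 by gates; the cause was not tested. Thinned to 2000 UMIs, the ratio of the shares of cells with a UMI was 1.14 for Il2rb and 1.12 for Il15ra. At equal state shares and resolution 2, Il2ra was at 0.088, Il7r at 0.26 and Il15ra at 0.059. With 1 library per group every interval covers counting error only, and the spread between mice is unknown.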
